A study of Mus musculus with 8 samples.

Results

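Tetraspanins are small membrane proteins with 4 membrane-spanning segments that gather integrins, immunoreceptors and proteases into shared membrane patches. The genes described here are 10 tetraspanins of blood cells, Cd37, Cd53, Cd63, Cd81, Cd82, Cd151, Tspan3, Tspan13, Tspan14 and Tspan32, chosen by name from 21104 genes measured with 1 symbol. All 10 were found, on 11 probe sets, because Cd151 had 2. Cd9, the tetraspanin by which the cells were sorted, was left out of the members. RNA came from haematopoietic stem cells (HSCs), the marrow cells that rebuild blood, sorted from untreated C57Bl/6 mice by a gate that took cells high in CD9 and positive for Sca-1, Kit and CD150, and left out those with lineage markers or CD48. The KO group had 4 pools of 3 mice each, all Vav-Cre;BMPR-II(fl/fl), which lack exons 4 and 5 of Bmpr2, one of the type II receptors that bind bone morphogenetic proteins, where the blood-cell transgene Vav-Cre was active. The WT group had 4 pools of 3 littermates each without Vav-Cre. WT pools 1 to 4 held 1, 0, 1 and 2 BMPR-II(fl/fl) mice and 2, 3, 1 and 1 BMPR-II(fl/+) mice, and WT pool 3 also held 1 BMPR-II(+/+) mouse. The series text counts 4 mice in each group, whereas the sample labels give the pools described here. The age of the mice is not stated in the labels, and Cre and loss of Bmpr2 cannot be told apart because every KO pool and no WT pool carried the transgene.

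Tetraspanins act less by binding ligands than by holding partner proteins together. CD151 holds laminin-binding integrins, CD63 cycles through lysosomes and multivesicular bodies, and TSPAN14 belongs to the TspanC8 group that escorts the protease ADAM10 out of the endoplasmic reticulum. In mouse HSCs, CD81 and CD82 have been tied to the return to or the keeping of quiescence. CD37 and CD53 are found mostly on leukocytes, and TSPAN32 mostly in blood cells.

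Levels are log2 values of Affymetrix arrays normalised by RMA, and n = 4 pools per group throughout. A level depends on the probes of its probe set, so levels are compared between pools and not between genes. Bmpr2 itself spanned 6.64 to 7.22 in KO, against 7.05 to 8.09 in WT, a difference of -0.79 (SE 0.21) that did not pass (limma adjusted p = 0.967; exact permutation p = 0.0571). Transcripts of the gate were present in both groups, with Kit at 10.19 ± 0.30 in KO and 10.35 ± 0.18 in WT and Slamf1, which encodes CD150, at 7.17 ± 0.35 in KO and 6.90 ± 0.23 in WT (SD). Cd48, which the gate selects against, spanned 4.40 to 6.13 in KO, against 4.12 to 5.52 in WT. WT pool 2 was least like the other arrays, with a median correlation across genes of 0.982, against 0.985 to 0.987 for the other pools, and some values below are also given without it.

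To show how unlike the control regions of these genes are, the 250 bases upstream of the start are printed for the 3 members with the smallest p, Cd53, Tspan3 and Cd82. The sequences are from RefSeq, build GRCm38.p6, all on the minus strand, at chr3:106790150-106790399 for Cd53, chr9:56161071-56161320 for Tspan3 and chr2:93462951-93463200 for Cd82, whose most upstream of 4 starts was taken. Capitals mark a match on either strand to 3 motifs, the GC box GGGCGG, the core TGTGGT read by RUNX factors and the core AGGAAG read by ETS factors.
Cd53: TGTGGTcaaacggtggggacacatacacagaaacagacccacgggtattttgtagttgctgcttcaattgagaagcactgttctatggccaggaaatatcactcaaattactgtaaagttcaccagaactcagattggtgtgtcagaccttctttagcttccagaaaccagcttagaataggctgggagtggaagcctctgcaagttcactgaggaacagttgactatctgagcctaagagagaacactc
Tspan3: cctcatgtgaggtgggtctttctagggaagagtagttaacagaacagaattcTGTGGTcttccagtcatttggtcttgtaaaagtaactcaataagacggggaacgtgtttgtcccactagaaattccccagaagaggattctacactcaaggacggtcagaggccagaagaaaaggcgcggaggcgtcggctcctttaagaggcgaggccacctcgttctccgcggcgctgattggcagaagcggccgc
Cd82: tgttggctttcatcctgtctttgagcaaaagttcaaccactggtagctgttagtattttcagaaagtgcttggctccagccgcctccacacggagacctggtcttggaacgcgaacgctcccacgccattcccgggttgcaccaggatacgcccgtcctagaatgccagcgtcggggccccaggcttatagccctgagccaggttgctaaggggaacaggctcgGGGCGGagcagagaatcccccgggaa
The Cd53 window held 2 CpG dinucleotides, a ratio of observed to expected CpG of 0.16 that was above 23.6% of all 32851 windows. The Tspan3 window held 14 with a ratio of 0.83, and that of Cd82 held 14 with a ratio of 0.66. Cd53 and Tspan3 each had 1 RUNX core, a match found in 14.0% of all windows, and Cd82 had 1 GC box, a match found in 32.7%. No ETS core, found in 29.5% of windows, lay in these 3, and no matches overlapped. For Cd82 this depends on the start taken. Windows at its other starts had CpG ratios of 0.50, 0.72 and 0.18, and some held RUNX or ETS cores. All 10 members had at least 1 window in the table, and the CpG ratio of the others at their first listed start lay between 0.05 for Tspan32 and 0.86 for Tspan14, against a median of 0.37 over all windows. Unlike the 3 printed windows, those of Tspan32 and Tspan14 were not at the outermost start of the gene. A match describes letters and is no evidence of binding.

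On the chromosomes, 4 of the 10 members lay on chromosome 7. In the order of protein-coding genes, Tspan32 and Cd81 were direct neighbours, Cd82 stood next to Tspan18, and Cd151 was separated from Tspan4 by Polr2l alone. The neighbouring genes had these differences. Cd81 differed by 0.24 (SE 0.21) and Tspan32 by -0.02 (SE 0.15), while Tspan18 differed by 0.04 (SE 0.12) beside Cd82 with -0.27 (SE 0.13). Each of these had a limma adjusted p of at least 0.967.

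No member passed the test between KO and WT. Of the 10, 5 averaged higher and 5 lower in KO, and limma called 0 at an adjusted p under 0.05, as it did over all 21104 genes (0.0%). At an unadjusted p under 0.05 there was 1 member, Cd53, against 960 genes or 4.55% of all tested, and 2.3% with KO higher, while the plain test with equal variances gave 0 members and 913 genes (4.33%). KO and WT pools did not overlap for 1 member, Cd82, against 2.58% of all genes in either direction and 1.5% with KO lower. The median difference of the members was 0.08 and that over all genes 0.00 when rounded, and 48.7% of all genes averaged higher in KO. The split of 5 and 5 and the members' median take Cd151 as higher, by its probe set with the higher mean. The other probe set of Cd151 gave -0.09. With 1 member at an unadjusted p under 0.05 and 1 without overlap, neither count tells the members from the background.

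**Figure D1:**
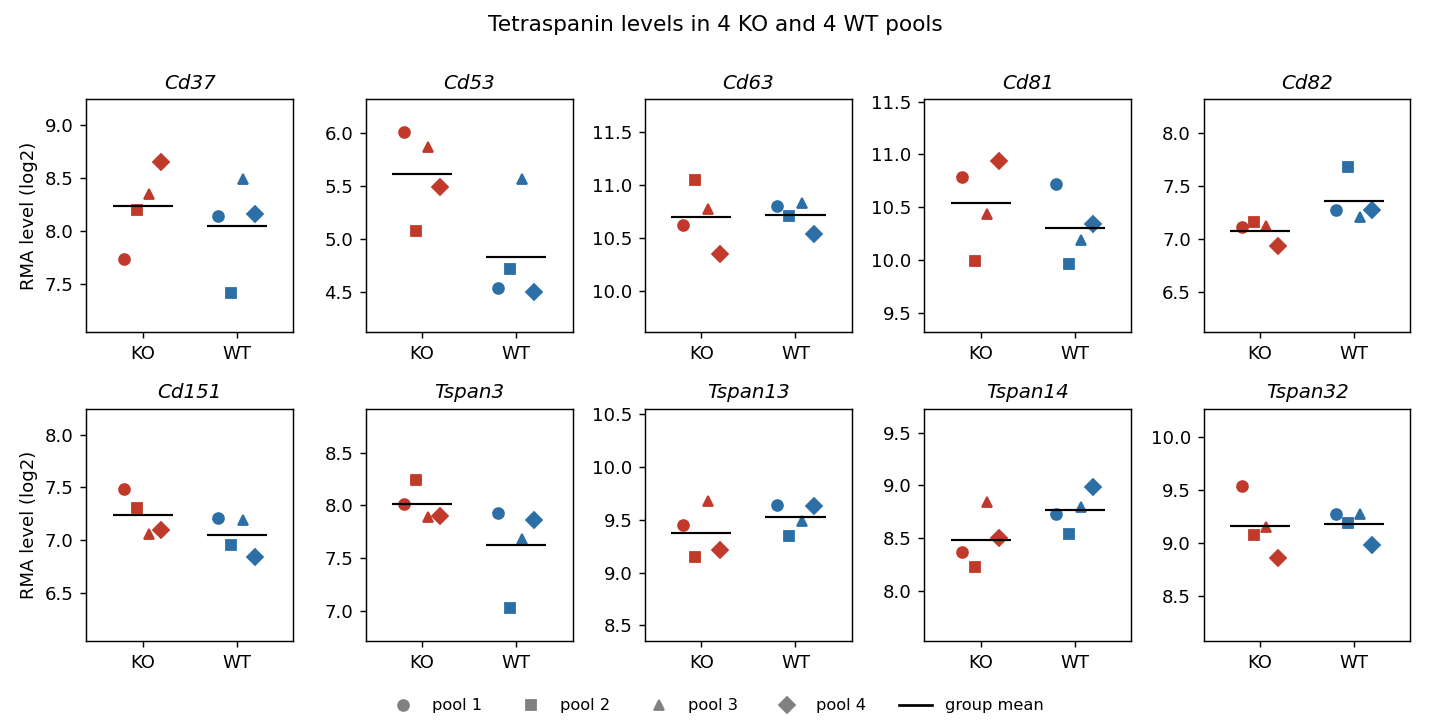
Level of each of 10 tetraspanin genes (log2, RMA) in 4 KO pools (red) and 4 WT pools (blue), with a black line at each group mean and every panel spanning the same log2 range. KO pools of Cd53 sit between 5.08 and 6.01 and overlap WT pool 3 at 5.57, while the KO pools of Cd82, at most 7.16, all lie below the WT pools, at least 7.21.

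Cd53, a tetraspanin of nearly all leukocytes that in mouse lymphocytes keeps L-selectin on the surface, had the largest difference of the members. Its level was 6.01, 5.08, 5.87 and 5.49 across KO pools 1 to 4, against 4.54, 4.72, 5.57 and 4.50 across WT pools 1 to 4. KO pools 1 and 3 lay above every WT pool, WT pool 3 lay above KO pools 2 and 4, and the other WT pools lay below every KO pool. The difference was 0.78 (SE 0.25), or 1.72-fold with a 95% interval from 1.17-fold to 2.53-fold, with a limma unadjusted p of 0.0103, an adjusted p of 0.967 and an exact permutation p of 0.0857. It ranged from 0.65 to 1.0 with 1 pool left out. Cd53 was also the only member whose mean level lay below the median of all genes, in the range where RMA compresses differences, and its pools spread widely, with a within-group SD of 0.46 that 2.70% of all genes exceeded.

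Levels of marker lists of blood and marrow cell types and of the cell cycle are given beside it. Not all of these lists stand for cells that carry CD53. In bulk RNA, more cells of a type and more RNA per cell cannot be told apart. Of 20 granulocyte and monocyte genes 15 averaged higher in KO, with a mean level of 5.97 to 6.72 in KO, against 5.66 to 6.53 in WT, and 0 were under 0.05 even before adjustment. The score of that list, the mean deviation of its genes from their means over 8 pools, was -0.23, 0.53, 0.21 and -0.01 across KO pools 1 to 4, against -0.13, -0.53, 0.34 and -0.17 across WT pools 1 to 4. KO pool 2 had the highest score and the lowest Cd53 of its group, while WT pool 3 had the highest score and the highest Cd53 of its group. Of 13 B cell genes 5 averaged higher (mean level 4.92 to 5.00 in KO and 4.84 to 5.13 in WT). Of 14 T and NK cell genes 8 did (4.87 to 4.98 in KO and 4.82 to 5.01 in WT), and of 16 dendritic cell and macrophage genes 11 did (5.76 to 6.12 in KO and 5.81 to 5.88 in WT). Of 13 genes of multipotent and lymphoid-primed progenitors 8 averaged higher (5.94 to 6.09 in KO and 5.87 to 6.10 in WT). Of 25 cell cycle genes 25 averaged higher, where 48.7% of all genes did, with a mean level of 8.31 to 8.79 in KO, against 7.83 to 8.51 in WT. By limma 8 of them were under 0.05 unadjusted, all with KO higher, where 2.3% of all genes were. In 3 of the 25 every KO pool lay above every WT pool, as in 1.09% of all genes. Genes of 1 list can vary together across pools, so these counts are not of independent genes. The score of the list was -0.03, -0.01, 0.45 and 0.24 across KO pools 1 to 4. It was -0.29, -0.51, 0.18 and -0.04 across WT pools 1 to 4, so the scores of the groups overlapped. Of 16 megakaryocyte and platelet genes 15 averaged higher, with 2 under 0.05 unadjusted by limma. The 2 were Gp1ba, with a difference of 0.60 (SE 0.18) and overlapping groups, and Gfi1b, with 0.47 (SE 0.15) and separate groups. Separate groups with KO higher were found for 1.09% of all genes. Of 14 erythroid genes 10 averaged higher, with Gata1 under 0.05 unadjusted at a difference of 0.62 (SE 0.23) and overlapping groups. Of 20 HSC identity genes 6 averaged higher, of 10 mast cell and basophil genes 4 and of 15 endothelial and stromal genes 7, and none of these lists, nor the lymphoid, myeloid and progenitor ones above, had a gene under 0.05 unadjusted. No marker list held a gene that passed by limma after adjustment. RMA levels have no true zero, so no marker could be called absent. The part of any of these cell types, or of the cell cycle, in the Cd53 values was not tested.

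Cd37, the other member found mostly on leukocytes and most abundant on mature B cells, ordered the pools differently from Cd53. Its level was 7.74, 8.20, 8.35 and 8.65 across KO pools 1 to 4, against 8.14, 7.41, 8.49 and 8.16 across WT pools 1 to 4. KO pool 1 was the lowest of its group although it had the highest Cd53. The difference was 0.19 (SE 0.23; limma adjusted p = 0.978), with a 95% interval from -0.33 to 0.70. It was -0.03 without WT pool 2 and 0.35 without KO pool 1.

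Tspan32, also called Tssc6 or Phemx, restrains the proliferation of mouse T cells and binds an integrin of platelets. It was at 9.54, 9.08, 9.15 and 8.86 across KO pools 1 to 4, against 9.27, 9.19, 9.27 and 8.98 across WT pools 1 to 4. KO pool 1 was the highest and KO pool 4 the lowest of all 8, with the WT pools between them. The difference was -0.02 (SE 0.15; limma adjusted p = 0.995) and its 95% interval, from -0.34 to 0.30, corresponds to between 0.789-fold and 1.23-fold.

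Cd82, known as a suppressor of metastasis and on HSCs as a partner of a macrophage receptor, was the member with separate groups. Its level was 7.11, 7.16, 7.12 and 6.93 across KO pools 1 to 4, against 7.27, 7.68, 7.21 and 7.27 across WT pools 1 to 4. The 4 KO pools lay below the 4 WT pools, although the highest KO pool and the lowest WT pool were close. The difference was -0.27 (SE 0.13), or 1.21-fold lower, with an exact permutation p of 0.0286, the smallest that 4 against 4 pools allow, and a limma adjusted p of 0.967. Without WT pool 2, which had the highest level, it was -0.17.

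Cd81, a ubiquitous tetraspanin, was at 10.79, 9.99, 10.44 and 10.94 across KO pools 1 to 4, against 10.72, 9.96, 10.19 and 10.34 across WT pools 1 to 4. Pool 2 was the lowest in both groups, and KO pools 1 and 4 lay above every WT pool. The difference was 0.24 (SE 0.21; limma adjusted p = 0.967), and it ranged from 0.11 without KO pool 4 to 0.42 without KO pool 2, with 0.12 when WT pool 2 was left out. The 95% interval ran from -0.23 to 0.70.

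Cd63, the tetraspanin of lysosomes and secretory granules, had nearly the same mean in both groups. Its level was 10.62, 11.05, 10.77 and 10.35 across KO pools 1 to 4, against 10.80, 10.71, 10.83 and 10.54 across WT pools 1 to 4. KO pools 2 and 4 lay above and below every WT pool, and the SD was 0.29 in KO and 0.13 in WT. The difference was -0.02 (SE 0.15; limma adjusted p = 0.995), with a 95% interval from 0.788-fold to 1.24-fold. Of 25 other genes of lysosomes and multivesicular bodies, the compartments CD63 passes through, 19 averaged higher in KO, and by limma 0 passed and 1 was under 0.05 unadjusted. The median difference of that list was 0.05, and Ctsd, the protease cathepsin D, differed by 0.49 (SE 0.19; limma adjusted p = 0.967).

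Cd151, which ties laminin-binding integrins to the membrane patch, was read by 2 probe sets that disagreed in sign. The one with the higher mean gave 7.49, 7.31, 7.06 and 7.10 across KO pools 1 to 4, against 7.21, 6.96, 7.19 and 6.84 across WT pools 1 to 4. Its difference was 0.19 (SE 0.13; limma adjusted p = 0.967), or 0.11 without KO pool 1, and 0.12 when WT pool 4 was left out. The other gave 6.49, 6.97, 6.75 and 6.76 in KO and 6.88, 7.07, 6.93 and 6.47 in WT, a difference of -0.09 (SE 0.15; limma adjusted p = 0.978 over all probe sets). No direction can be given for Cd151 from these probe sets.

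Tspan3, which mouse studies tie to the self-renewal of myeloid leukaemia cells, was at 8.01, 8.24, 7.89 and 7.90 across KO pools 1 to 4, against 7.93, 7.03, 7.68 and 7.86 across WT pools 1 to 4. WT pool 2 was far below all others and WT pool 1 lay within the KO range. The difference was 0.39 (SE 0.18; limma adjusted p = 0.967; exact permutation p = 0.0857), and without WT pool 2 it was 0.19.

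Tspan14, an escort of ADAM10, was at 8.37, 8.23, 8.84 and 8.50 across KO pools 1 to 4, against 8.73, 8.54, 8.80 and 8.98 across WT pools 1 to 4. KO pools 1, 2 and 4 lay below every WT pool, while KO pool 3 lay above all WT pools but pool 4. The difference was -0.28 (SE 0.15; limma adjusted p = 0.967; exact permutation p = 0.171) and ranged from -0.39 to -0.19 with 1 pool left out. Tspan13 was at 9.45, 9.15, 9.68 and 9.21 across KO pools 1 to 4, against 9.64, 9.35, 9.49 and 9.63 across WT pools 1 to 4. KO pools 2 and 4 were lower than every WT pool, and KO pool 3 was the highest of all 8. Its difference was -0.15 (SE 0.14; limma adjusted p = 0.967), or -0.08 without KO pool 2, against -0.26 when KO pool 3 was left out.

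**Figure D2:**
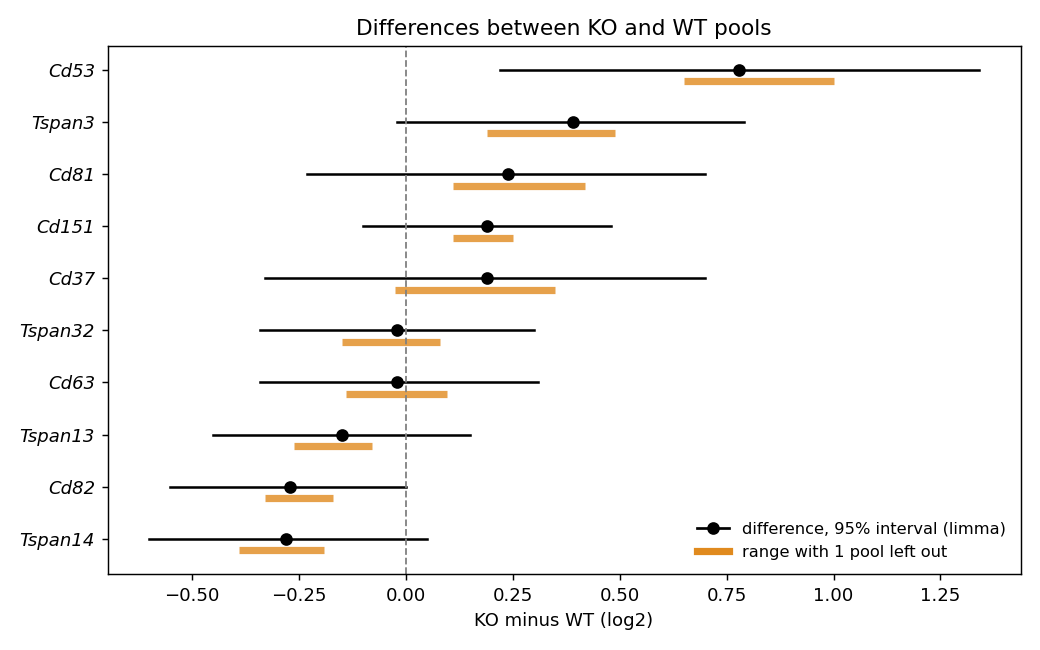
Difference between KO and WT means (log2) for each of 10 tetraspanins, ordered by size, with the limma 95% interval in black and, in orange, the range of the difference when 1 of the 8 pools is left out. The interval of Cd53 runs from 0.22 to 1.34, the orange ranges of Cd37, Tspan32 and Cd63 cross 0, and those of the other members do not.

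Across the 8 pools the members did not vary as 1 group. Of the 45 pairs, 24 correlated above 0, with a median Pearson r of 0.05 and a range from -0.80 to 0.83, given as a description of 8 arrays that share their processing. Tspan13 and Tspan14 were the closest pair, with r = 0.83 and Spearman's rho = 0.81. The r was 0.83 without WT pool 2 and 0.72 without KO pools 2 and 4, which were farthest from the Tspan13 median. Of all genes, 0.474% had an r with Tspan13 at least as high. The pair was picked as the highest of the 45, so that share does not measure how rare it is. Tspan3 and Cd82 were the most opposed, with r = -0.80, but r was -0.12 without WT pool 2, so that relation rests on 1 pool. WT pool 2 held the lowest level of 3 members, Cd37, Cd81 and Tspan3, and the highest of Cd82, and among all genes it held the lowest level for 17.2% and the highest for 18.2%. It was not alone in this. KO pool 4 held the lowest level of 3 members, Cd63, Cd82 and Tspan32, and the highest of 2, Cd37 and Cd81. KO pool 2 held the lowest of 2 and the highest of 2. Genes most alike to Cd53 were Gpatch4 (r = 0.96) and Epcam (r = 0.94). Those to Tspan3 were Sh3pxd2a (r = 0.97) and Rngtt (r = 0.97), and those to Cd82 were Fabp3 and Krtap4-13 (r = 0.98 each). All were picked as the closest of the named genes among 21104 over 8 pools, and every member had a gene with r of at least 0.947. Whether these r hold without WT pool 2, which had the lowest Tspan3 and the highest Cd82, was not tested.

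**Figure D3:**
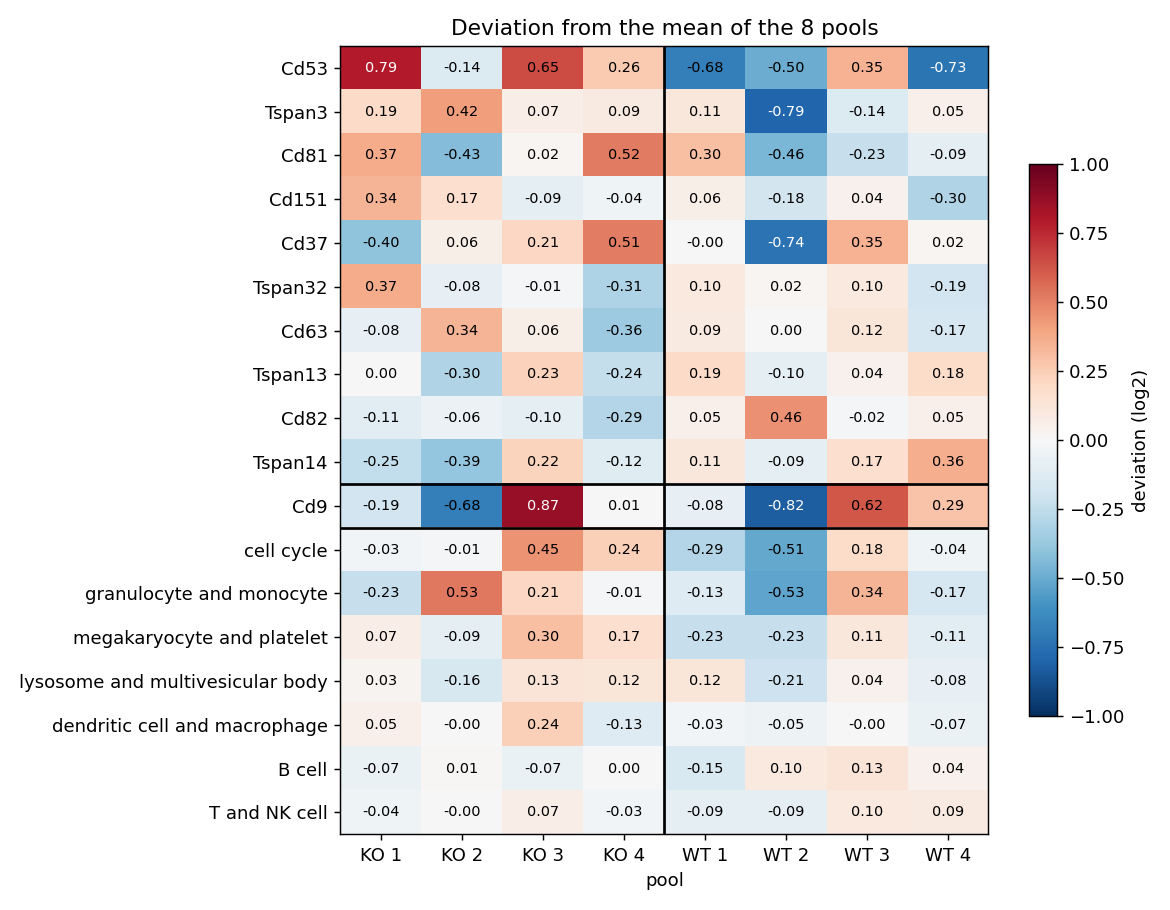
Deviation of each pool from the mean of the 8 pools (log2, colour and number) for the 10 tetraspanins, for the gate's tetraspanin Cd9 and for the mean of the genes in 7 lists, KO pools at the left and WT pools at the right. Cd53 is at 0.79 in KO pool 1 and -0.73 in WT pool 4, Cd9 is high in pool 3 and low in pool 2 of both groups, and the cell cycle list is lowest in WT pool 2 at -0.51.

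Cd9, the tetraspanin of the gate, spread more among the pools of each group than any member, with an SD of 0.65 in KO and 0.62 in WT. It was at 8.72, 8.23, 9.78 and 8.92 across KO pools 1 to 4, against 8.83, 8.09, 9.53 and 9.20 across WT pools 1 to 4, with means of 8.91 in both groups and a difference of 0.00 (SE 0.34). Pool 3 was the highest and pool 2 the lowest of each group. The 95% interval of the difference, from the fit that leaves out the pool number, ran from -0.74 to 0.74.

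No other tetraspanin passed. Of 21 listed, 20 were measured, of which 7 averaged higher and 13 lower in KO. By limma 0 passed, 1 was under 0.05 unadjusted, and the median difference was -0.06. Upk1b, which encodes a uroplakin of the bladder lining, was at 4.22, 4.45, 4.40 and 4.41 across KO pools 1 to 4, against 4.55, 4.88, 4.70 and 4.69 across WT pools 1 to 4. Its groups did not overlap and its difference was -0.34 (SE 0.11; limma adjusted p = 0.967), at a level in the lower part of the arrays. Next by size of the statistic were Tspan6 with 0.26 (SE 0.18), Tspan8 with -0.23 (SE 0.17), which was -0.06 without WT pool 2, Tspan15, another TspanC8 member, with -0.18 (SE 0.13), and Prph2, a tetraspanin of photoreceptors, with -0.16 (SE 0.13), each with a limma adjusted p of 0.967. Without WT pool 2, Tspan6 was at 0.17 and Tspan15 at -0.10. Tspan6 was at 0.44 without KO pool 1, Tspan8 at -0.36 without WT pool 3, Tspan15 at -0.11 without KO pool 1 and Prph2 at -0.26 without WT pool 4.

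No gene for a protein that tetraspanins hold or work with passed. Of 45 listed, 43 were measured, of which 29 averaged higher and 14 lower in KO. By limma 0 passed and 1, Prkca, was under 0.05 unadjusted, and the median was 0.07. Groups were separate for 3, Prkca, Itga6 and Msn, all with KO higher, as for 1.09% of all genes. Msn differed by 0.19 (SE 0.12; limma adjusted p = 0.967). Adam10, the protease escorted by TSPAN14, was at 8.55, 8.53, 8.96 and 8.51 across KO pools 1 to 4, against 8.52, 8.40, 8.67 and 8.60 across WT pools 1 to 4. Its groups overlapped, and the difference of 0.09 (SE 0.13; limma adjusted p = 0.980) was -0.02 without KO pool 3, or 0.04 when WT pool 2 was left out. In the list of the TspanC8 group, ADAM10 and its substrates, which includes Tspan14, 8 of 18 measured genes averaged higher. By limma 0 passed and 2 were under 0.05 unadjusted, where 4.55% of all genes were. The 2 were App, the amyloid precursor, with a difference of 0.32 (SE 0.14), and Fcer2a, the low-affinity receptor for IgE, with -0.25 (SE 0.11). Both had a limma adjusted p of 0.967. Fcer2a spanned 3.42 to 3.73 in KO and 3.70 to 3.90 in WT, below the lower quartile of every array.

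Among integrins, the shared subunit Itgb1 differed by 0.19 (SE 0.15; limma adjusted p = 0.967), or 0.07 without KO pool 3. Itga6, a laminin-binding subunit that CD151 holds, was at 8.50, 8.68, 8.65 and 8.46 across KO pools 1 to 4, against 8.36, 8.29, 8.42 and 8.39 across WT pools 1 to 4. The groups did not overlap, and the difference was 0.21 (SE 0.10; limma adjusted p = 0.967; exact permutation p = 0.0286). Itga3, another such subunit, went the other way, with 5.12 to 5.38 in KO and 5.30 to 5.61 in WT. Its groups overlapped, and its difference was -0.2 (SE 0.11; limma adjusted p = 0.967; exact permutation p = 0.0571). Prkca, a protein kinase C that binds several tetraspanins, was at 7.29, 7.26, 7.10 and 7.26 in KO and 6.94, 6.47, 6.97 and 6.74 in WT. It had separate groups and a difference of 0.44 (SE 0.13; limma adjusted p = 0.967; exact permutation p = 0.0286). The leukocyte integrin subunit Itgb2 differed by 0.36 (SE 0.17), or 0.23 without WT pool 2, and Tsg101, which sorts cargo into multivesicular bodies, by -0.29 (SE 0.15), or -0.17 without WT pool 3, both with a limma adjusted p of 0.967.

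**Figure D4:**
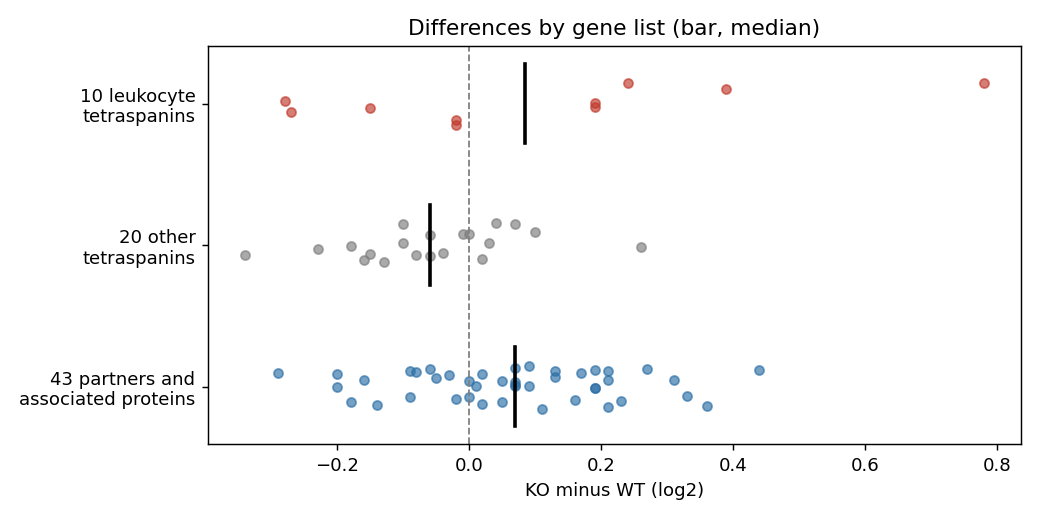
Difference between KO and WT means (log2) for each gene of 3 lists, the 10 leukocyte tetraspanins, 20 other tetraspanins and 43 partners and associated proteins, with the median as a black bar and vertical scatter for display only. The medians are 0.08, -0.06 and 0.07, with Cd151 read by its probe set with the higher mean, and Cd53 at 0.78 lies farthest from 0.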

How the data were processed

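Per the submitters' processing notes, the authors processed the arrays with RMA in Affymetrix Expression Console 1.3, after RNA of each pool was amplified from very small amounts, per the labels' protocols. The deposited values are log2 levels from 1.47 to 13.26 for 28853 probe sets on 8 arrays. RMA equalises the arrays, so it can hide a change shared by most genes. The authors' deposited table also gives a log2 ratio, a signed fold change and an unadjusted p-value for KO against WT. The array number limits the precision. The genome build and annotation release, not given in the sources used here, leave the probe sets without coordinates.

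For each symbol the probe set with the highest mean was kept, giving 21104 genes. KO was compared with WT in R 4.3.3 with limma 3.58.1 (lmFit, eBayes, no covariate), Benjamini-Hochberg adjusted over all genes at 0.05. Limma's test was checked on simulated data with independent noise for each gene and pool. That check does not cover genes or pools that vary together. Exact 2-sided permutation tests covered 70 assignments of pools and cannot go below 0.0286. Medians and scores (mean deviation of a list's genes from their 8-pool means) are descriptions. The members and lists were chosen with earlier results of these data known. Named by rule were the members, Bmpr2, Cd9, Adam10, Itgb1, genes with the largest statistic in each list (5 other tetraspanins, 4 partners, 2 of a marker list) and genes most alike to a member. Kit, Slamf1, Cd48, Itga3, Msn, Tspan4, Tspan18 and Polr2l were named after their values or places were seen. Of the listed genes, Adgre1 was found as Emr1. Gene order came from a RefSeq table of assembly GRCm38.p6, used for names and order only. Alternatives covered normalization, dim probe sets, variance model, test, block and leaving out each pool.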

Additional observations from a re-analysis of the deposited data

Results flagged for a closer look

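In 92 groups of 4 pools, 3 values stood apart from the rest of their group by Dixon's criterion, where chance alone gives about 1 in 20 groups. Cd82 was at 7.68 in WT pool 2, with the next WT pool at 7.27. Adam10 was at 8.96 in KO pool 3, with the next KO pool at 8.55. Prkca was at 7.10 in KO pool 3, with the next KO pool at 7.26.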

How the results depend on the processing

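No member passed under any of the 17 alternatives, where the smallest adjusted p of a member was 0.583, and limma called 0 genes over all except with the replicate number as a block, which called 2. Under that block Cd53 had a limma adjusted p of 0.583, and the SE of Cd9 was 0.12 instead of 0.34. By limma 3 members were then under 0.05 unadjusted instead of 1, while over all 21104 genes 1689 were, instead of 960. The labels do not explain the number. Deviations of same-numbered pools correlated at 0.287, 0.213, 0.305 and 0.0623, and each pool correlated best with its own number, a hint from the data and not from the design. Centring the arrays on their medians turned Cd63 to 0.016 and Tspan32 to 0.015, and Cd9 was -0.075 after a further quantile normalization and -0.062 with array weights. Leaving out 1 pool gave ranges that cross 0 for Cd37 (-0.026 to 0.35), Cd63 (-0.14 to 0.097), Tspan32 (-0.15 to 0.08), Cd9 (-0.29 to 0.23) and Adam10 (-0.02 to 0.13). Between 4 and 7 members averaged higher in KO with 1 pool left out, and the median member difference ranged from -0.018 (without WT pool 2) to 0.115. Cd53 lay below the median level and had no value among genes above it. The causes were not tested.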
